A study of Mus musculus with 12 samples.

Results

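The genes described are 10 members of the ATF4 stress response and of serine synthesis: Atf4, Atf5, Ddit3, Chac1, Trib3, Asns, Sesn2, Phgdh, Psat1 and Psph. They were taken by symbol, and all 10 were found among the 23973 genes of the IL7 table and the 24015 genes of the LPS table. The cultured B cells whose RNA was sequenced came from mice that carry T58A, a point mutation of MYC at residue 58 that removes a phosphorylation site used to mark the protein for degradation, and from their wild-type (WT) littermates. The 4 groups of 3 libraries were T58A and WT marrow B cells cultured in IL7, a cytokine on which B cell precursors depend, and T58A and WT splenic B cells cultured in LPS, which makes mature B cells divide and secrete antibody, each for 48 h. All cultures were of primary cells in serum-containing medium, and the labels give neither the zygosity of T58A nor strain, age or the animal behind each library. P-values therefore measure the spread between these libraries, which may in part be technical.

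ATF4 is a transcription factor of the integrated stress response. When a kinase that senses amino acid shortage, unfolded proteins, heme shortage or double-stranded RNA phosphorylates the initiation factor eIF2, most translation slows while the Atf4 message is translated more, so its RNA level is only part of its control. ATF4 then switches on genes for making and importing amino acids, for charging tRNAs and, when stress persists, for cell death, and growing lymphocytes use the same programme, with MYC, to supply serine and other amino acids.

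All 10 members are protein-coding genes, and in GRCm38 Ddit3 lies on chromosome 10 from 127290774 to 127296288, Psat1 on chromosome 19 from 15904678 to 15947337 and Atf4 on chromosome 15 from 80255184 to 80257541. Chac1 and Trib3 share chromosome 2, from 119351229 to 119354381 and from 152337422 to 152344032, and Asns lies on chromosome 6 from 7675169 to 7693254.

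The libraries held 5110746 to 10201113 reads assigned to genes, and a count of 0 allows a level of up to 3 reads, or 2.15 to 4.12 normalised reads, counting error alone considered. Levels are given as normalised reads, the deposited value of a read count scaled to each culture's libraries. Myc itself had 3038, 4397 and 4827 normalised reads in IL7 T58A libraries 1 to 3, against 2010, 3204 and 3858 in the WT libraries, and 961, 1418 and 693 in LPS T58A libraries, against 749, 1095 and 731 in the LPS WT libraries. A message level does not check a point mutation. The 6 B lineage markers summed to 2806 to 3650 CPM (reads scaled to the library's total) in IL7 T58A and 3360 to 5399 in IL7 WT libraries, and to 6168 to 6660 in LPS T58A and 5684 to 6927 in LPS WT libraries. Markers of marrow precursors summed to 1633 to 1884 CPM in IL7 T58A, 1777 to 2381 in IL7 WT, 2.57 to 8.79 in LPS T58A and 2.14 to 5.42 in LPS WT libraries, and hemoglobin genes Hbb-b1 and Hba-a1 were at 0 in all 12. Female Xist stood at 11281 to 23674 normalised reads in WT 1 and WT 2 of both cultures and at 3.60 to 26.9 in the other 8 libraries, so sex moved with genotype except in number 3, where T58A and WT were both male. IL7 WT 2 also held 31.7 to 58.9 normalised reads of each of 4 Y-linked genes. The part of sex in the results was not tested beyond the within-number values given for single genes. These are bulk samples, so fewer cells that use a gene and less RNA per cell cannot be told apart.

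The promoters of members that carry the ATF4 element, the composite site known from amino acid response genes, were read because the members varied together between libraries, as described for the LPS cultures. The element was searched as TGATGNAA on both strands, from 250 bases before to 50 bases after the RefSeq start in GRCm38.p6. It stood in 3 of the 10 members, Asns, Chac1 and Trib3, and in 3.97% of all 32851 windows of the same length. The looser TGANGNAA, which includes the first form, stood in the same 3 members and in 16.5% of windows. The E-box CACGTG, the motif bound by MYC, was in none of the members' windows and in 7.15% of all windows. The members were counted by gene and the shares by window, and Atf5 and Psat1 each had a further window. Since the members were listed as genes of the ATF4 response and serine synthesis, their count is no test of the element. A match is a description of letters, not proof of a site. In the lines that follow, capitals mark matches to either form of the element. The Asns line is chr6:7693210-7693459 on the minus strand, with its element starting 23 bases before the start. The Chac1 line is chr2:119350992-119351241 on the plus strand, where a reverse-strand match starts 193 bases before the start and a looser match 250 bases before it. The Trib3 line is a short stretch just after the start, chr2:152344028-152344057 on the minus strand.
Asns: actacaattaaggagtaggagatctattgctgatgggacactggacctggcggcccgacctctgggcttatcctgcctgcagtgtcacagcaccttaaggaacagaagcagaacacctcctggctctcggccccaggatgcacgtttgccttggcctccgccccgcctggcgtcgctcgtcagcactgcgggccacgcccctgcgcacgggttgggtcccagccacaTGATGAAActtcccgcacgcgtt
Chac1: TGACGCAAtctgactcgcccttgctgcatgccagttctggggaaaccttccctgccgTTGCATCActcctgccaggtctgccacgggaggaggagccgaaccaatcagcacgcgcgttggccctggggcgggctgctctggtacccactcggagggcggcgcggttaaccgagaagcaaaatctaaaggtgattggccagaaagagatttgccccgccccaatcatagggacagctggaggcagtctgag
Trib3: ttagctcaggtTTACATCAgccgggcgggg

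Across the cultures, Chac1, Sesn2, Atf5 and Ddit3 were higher in every LPS library than in every IL7 library, and Phgdh was lower. Levels between genes were compared as RPKM, the reads of a gene scaled to its exon length and to the reads assigned in the library. The culture ratios are descriptions with no test, because organ, cell stage and stimulus differ together. They rest on reads scaled to each library's total, not on the normalised reads, which were scaled separately in each culture. Of the 10767 genes tested in both cultures, 19.3% had all 6 LPS libraries above all 6 IL7 libraries and 29.5% had all 6 below, against 4 and 1 of the 10 members. Chac1, which encodes an enzyme that breaks down glutathione, stood at 25.4 ± 6.86 RPKM in LPS T58A and 4.42 ± 1.67 in IL7 T58A cultures (SD, n = 3 each), a ratio of 5.74, and the WT ratio was 8.50. Sesn2, an inhibitor of mTORC1 signalling that senses leucine, had ratios of 3.58 in T58A and 4.24 in WT. For Atf5, a relative of ATF4, the ratios were 3.12 in T58A and 4.14 in WT. Those of Ddit3, the stress factor CHOP, were 3.65 in T58A and 2.94 in WT. Phgdh, the enzyme that opens serine synthesis, gave ratios of 0.55 in T58A and 0.50 in WT. The LPS and IL7 libraries overlapped for Atf4, Asns, Trib3, Psat1 and Psph.

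Within a culture Atf4 was the most abundant member in all 4 groups, at 184 ± 17.4 RPKM in IL7 T58A, 197 ± 16.7 in IL7 WT, 199 ± 30.4 in LPS T58A and 224 ± 38.5 in LPS WT cultures (SD, n = 3 each). In IL7 T58A cultures the order after it was Psat1 at 90.1, Phgdh at 46.6, Asns at 40.9, Atf5 at 18.4, Psph at 14.9, Trib3 at 10.9, Ddit3 at 9.23, Chac1 at 4.42 and Sesn2 at 3.37 RPKM. Neighbours in this order overlapped for Psph and Trib3, Trib3 and Ddit3, and Chac1 and Sesn2. IL7 WT cultures had the same order except that Ddit3, at 13.5 RPKM, stood above Trib3 at 13.4. There the neighbours Phgdh and Asns, Ddit3 and Trib3, and Chac1 and Sesn2 overlapped. In LPS cultures the order was looser. Psat1 at 72.2 RPKM followed Atf4 in T58A, and Atf5 at 80.1 followed it in WT, and below these ranks every neighbouring pair overlapped in both genotypes. Sesn2 had the lowest mean in each of the 4 groups.

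**Figure D1:**
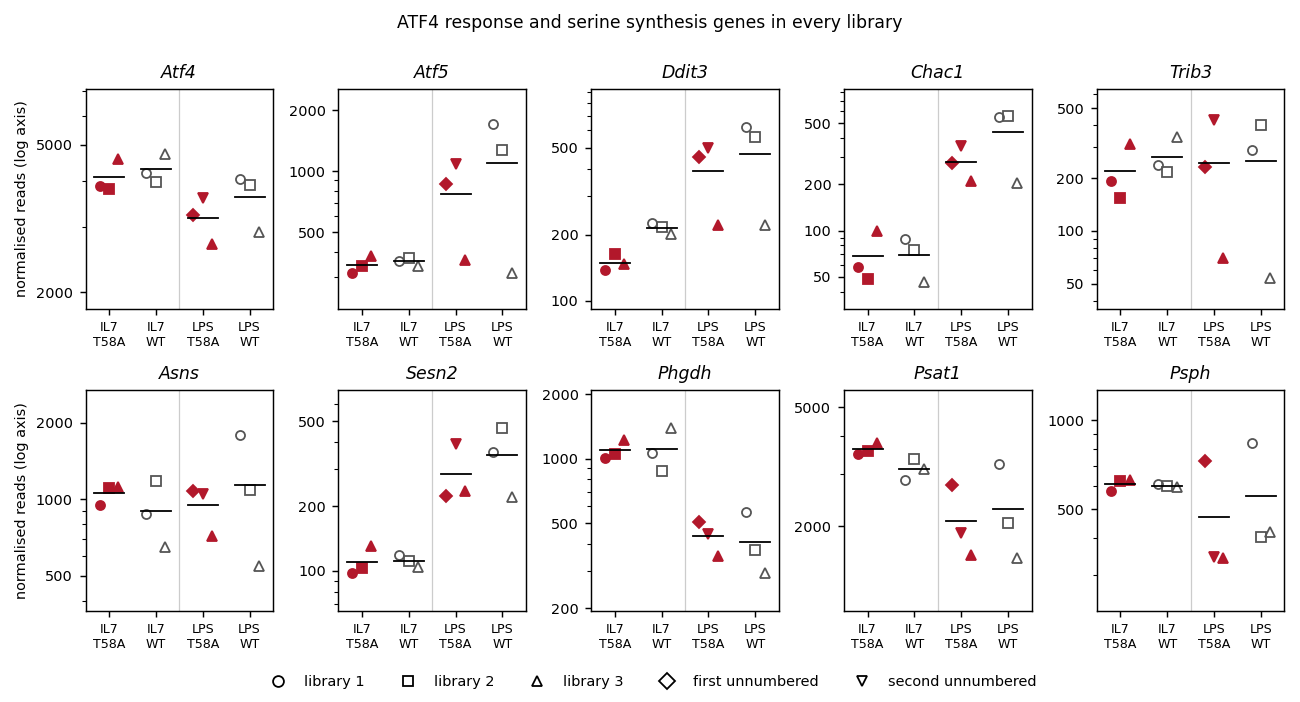
Normalised reads of each gene in every library (log axis, scale differs by panel). Filled red symbols are T58A, open symbols WT, and a bar marks the mean of each group of 3. The cultures were normalised separately, so heights can be compared within a culture only. In LPS cultures the libraries numbered 3, shown as triangles, are the lowest or close to the lowest of their group in every panel, and Ddit3 is the panel in which all IL7 T58A libraries lie below all IL7 WT libraries.

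In IL7 cultures the Atf4 programme did not move as a block with T58A. Ddit3, Trib3 and Atf4 were lower in T58A in all 3 pairs and Psat1 was higher in all 3. The share of all genes with a like sign in all 3 pairs was not counted. All members other than Ddit3 and Psat1 overlapped between the genotypes. Without a term for the pair, limma-trend on log2 of the normalised reads plus 1 called 0 of the 10 members at an adjusted p under 0.05, and 0 of 11604 genes (0%). The unadjusted p was under 0.05 for 2 members and 1960 genes. By edgeR and limma-voom 0 genes were called, and by DESeq2 309 of 10026 (3.08%), none of them a member. The titles number T58A and WT libraries as pairs, and same-numbered libraries deviated together. With the pair as a block, limma called 1476 of 11604 genes (12.7%), 744 higher (6.41%) and 732 lower in T58A (6.31%), and 1 of the 10 members.

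That member was Ddit3, which encodes CHOP, a factor induced by ATF4 that promotes cell death under lasting stress. It had 138, 163 and 146 normalised reads in T58A libraries 1 to 3, against 226, 218 and 201 in WT. All T58A libraries lay below all WT libraries, a pattern shown by 10.8% of genes tested. The log2 difference was -0.53 with an SE of 0.13 (limma adjusted p = 0.175 without the block). With the pair as a block the SE was 0.12 and the adjusted p 0.0295, and edgeR with the block, which called 12.3% of genes, gave -0.53 with an adjusted p of 0.0278. The log2 differences within the pairs were -0.71, -0.42 and -0.46 for pairs 1 to 3, the last being the pair of like sex. Without pair 2 the blocked difference was -0.58 with an adjusted p of 0.0703, past the threshold no longer. The authors' deposited table gives Ddit3 a log2 fold change of -0.40 with an adjusted p of 0.103, where it called 1036 of 10742 genes (9.64%). DESeq2 run here without the block gave -0.53 with an adjusted p of 0.0808, so the deposited estimate may be made differently. The call changed with the test. Ddit3 overlaps at its end with Mars, a tRNA synthetase gene on the other strand from 127296221 to 127311786, and reads were not marked by strand. Mars was higher in T58A by 0.31 (limma adjusted p = 0.0224 with the block), and its part in the Ddit3 reads was not tested.

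Atf4 itself had 3873, 3799 and 4592 normalised reads in T58A, against 4213, 3966 and 4734 in WT. The genotypes overlapped, and in each genotype library 3 was the highest. T58A was the lower of each pair, by -0.12, -0.06 and -0.04 on the log2 scale. The difference was -0.08 with an SE of 0.11 (limma adjusted p = 0.735) without the block and 0.06 with it (limma adjusted p = 0.432). Atf5, at 313, 341 and 382 normalised reads in T58A and 361, 371 and 341 in WT, likewise overlapped, with a difference of -0.05 and an SE of 0.11.

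Trib3, a pseudokinase that ATF4 induces and that in turn restrains ATF4, had 191, 154 and 312 normalised reads in T58A, against 238, 216 and 341 in WT. Number 3 was the highest in both genotypes, and T58A was the lower of each pair, by -0.31, -0.48 and -0.13 on the log2 scale. The difference was -0.31 with an SE of 0.27 without the block and 0.12 with it (limma adjusted p = 0.116 with the block). Chac1 had 58.1, 48.6 and 98.9 normalised reads in T58A and 88.2, 74.3 and 46.2 in WT. Its pairs went apart: T58A was lower in pairs 1 and 2, by -0.59 and -0.60. In pair 3, the pair of like sex, T58A was higher, by 1.08. Sesn2, at 97.9, 103 and 130 in T58A and 119, 111 and 105 in WT, had the same split of signs.

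Of the amino acid enzymes, Psat1, which catalyses the middle step of serine synthesis, had 3489, 3561 and 3801 normalised reads in T58A, against 2860, 3365 and 3116 in WT. The T58A libraries all lay above those of WT, as they did for 12.9% of genes tested. The difference of 0.22 (SE 0.09) had a limma adjusted p of 0.270, and with the block an SE of 0.07 and an adjusted p of 0.0694, so it did not pass. Within the pairs it was 0.29, 0.08 and 0.29. The authors' deposited table gives Psat1 0.21 with an adjusted p of 0.0963.

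Phgdh, the first enzyme of the route, had 1005, 1055 and 1226 normalised reads in T58A, against 1065, 870 and 1388 in WT. The groups overlapped and the difference was 0.00 with an SE of 0.16. Psph, the phosphatase that completes the route, had 576, 623 and 629 in T58A, against 610, 598 and 593 in WT. It was the steadiest member in IL7 cultures, with a pooled within-group SD of 0.05 on the log2 scale, and 3.07% of genes tested had a smaller one. Asns, which makes asparagine, had 946, 1103 and 1121 normalised reads in T58A and 873, 1182 and 652 in WT. WT 3 was the low library, and the difference of 0.27 had an SE of 0.19 without the block and 0.15 with it (limma adjusted p = 0.255 with the block).

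**Figure D2:**
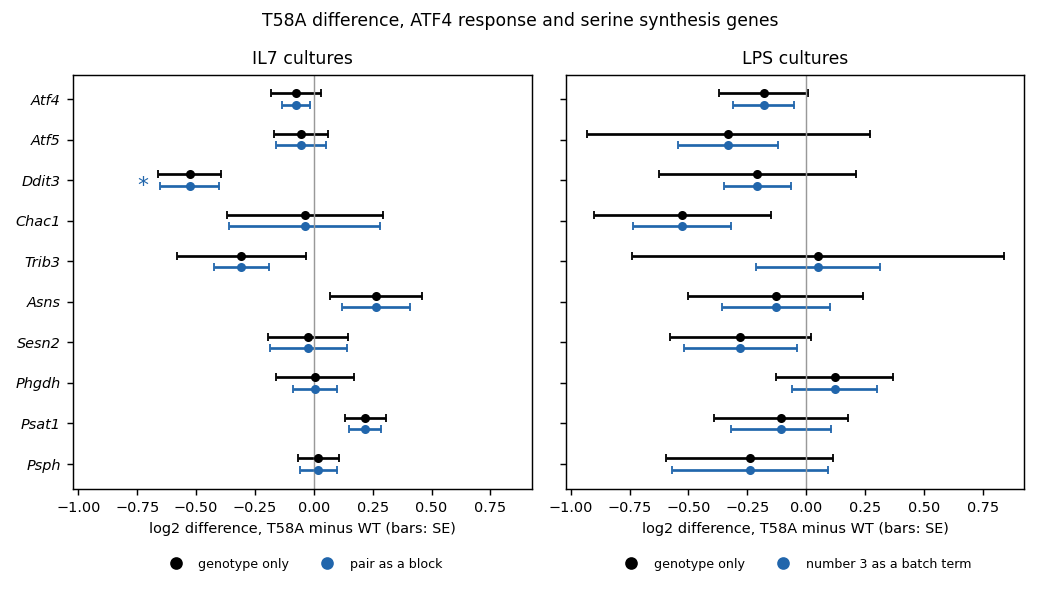
Log2 difference of T58A minus WT with its SE for each gene in IL7 cultures (left) and LPS cultures (right), without a further term in black and with the pair (IL7) or number 3 (LPS) as a term in blue. The star marks Ddit3 at -0.53 in IL7 cultures, the 1 value with an adjusted p under 0.05 in the fits drawn.

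In LPS cultures no member was called between T58A and WT in any fit run, and the spread between libraries was wide. By limma 0 of the 10 members and 0 of 11291 genes (0%) had an adjusted p under 0.05. Unadjusted, the p was under 0.05 for 0 members and 284 genes. By edgeR and limma-voom 0 genes were called and by DESeq2 1 (0.00886%), which was no member. T58A libraries lay all above or all below WT for none of the members, against 3.1% of genes above and 3.3% below. The LPS table heads 2 of its T58A columns with the same name, so these are given as the first and second unnumbered T58A libraries, followed by T58A 3.

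Atf4 had 3228, 3603 and 2707 normalised reads in LPS T58A libraries, against 4047, 3899 and 2907 in WT 1 to 3. Number 3 was lowest in both genotypes, and the groups overlapped. The log2 difference was -0.18 with an SE of 0.19. Atf5, which like ATF4 is translated more when eIF2 is phosphorylated, had 864, 1087 and 366 in T58A, against 1706, 1272 and 316 in WT. Its difference was -0.33 with an SE of 0.60, and -0.60 with an SE of 0.23 without both libraries numbered 3 (limma adjusted p = 1.00).

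Ddit3 had 452, 496 and 223 normalised reads in LPS T58A libraries, against 621, 561 and 221 in WT. Apart from the libraries numbered 3, which were alike, both T58A libraries lay below both WT libraries. The same order was seen for Atf4, Atf5, Chac1 and Asns, but not for Trib3, Sesn2, Phgdh, Psat1 or Psph. Number 3 was set aside here after the values were seen. The share of all genes with this order was not counted, and in those libraries sex moved with genotype. Within number 3, of like sex, the log2 difference was 0.01 for Ddit3, 0.21 for Atf5, 0.39 for Asns and -0.10 for Atf4. Over all libraries that of Ddit3 was -0.21 with an SE of 0.42. Chac1 had 277, 356 and 211 in T58A, against 547, 562 and 203 in WT. Its difference was -0.53 with an SE of 0.38, and within number 3 it was 0.05. With number 3 as a term the SE was 0.21 (limma adjusted p = 0.979), in a fit that called 1 gene (0.00886%), and without both libraries numbered 3 the difference was -0.82 with an SE of 0.21 (limma adjusted p = 1.00), where 4 genes were called (0.0354%). The authors' deposited table gives Chac1 -0.40 with an adjusted p of 0.0896, in a table where 225 of 5359 genes (4.2%) passed. DESeq2 run here gave Chac1 -0.63, so the deposited estimate may be made differently.

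Trib3 had 232, 431 and 70.4 normalised reads in LPS T58A, against 290, 403 and 54.1 in WT. Number 3 lay far below the rest, and the genotypes overlapped, with a difference of 0.05 and an SE of 0.79. Sesn2, at 224, 390 and 237 in T58A and 360, 464 and 222 in WT, overlapped as well.

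Asns had 1080, 1047 and 718 normalised reads in LPS T58A, against 1786, 1085 and 548 in WT. WT 1 was the highest of the 6 and number 3 the lowest in both genotypes. The difference was -0.13 with an SE of 0.37, and -0.39 with an SE of 0.26 without both libraries numbered 3 (limma adjusted p = 1.00). Phgdh, at 506, 446 and 351 in T58A and 565, 373 and 293 in WT, differed by 0.12 with an SE of 0.25. Psat1, at 2741, 1905 and 1608 in T58A and 3242, 2056 and 1571 in WT, differed by -0.11 with an SE of 0.28. Both enzymes had number 3 lowest in each genotype. Psph had 727, 346 and 342 in T58A, against 839, 404 and 419 in WT, so the first unnumbered T58A library and WT 1 stood apart from the other 4.

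In LPS cultures the libraries numbered 3, T58A and WT alike, held less of most members than the other 4 did, and for all 10 members this difference was larger in size than that between the genotypes. The pattern was seen in the values and is given as a description, with no test. Both libraries numbered 3 lay below the other 4 for 8 of the 10 members, against 14.7% of the 11291 genes, and for none did both lie above, against 15.3%. The mean of both minus the mean of the other 4 was -2.39 on the log2 scale for Trib3, a value below which 0.133% of genes lay. It was -1.81 for Atf5, with 0.319% of genes lower, and -1.25 for Ddit3, with 1.31% lower. Chac1 followed at -1.01, Asns at -0.95, Psat1 at -0.61, Phgdh at -0.54 and Atf4 at -0.39, the smallest size among the 10. For Sesn2, at -0.60, 1 of the other 4 libraries lay within the range of number 3, and for Psph, at -0.51, 2 did. The median over all genes was 0.00. In IL7 cultures number 3 did not do this: both lay below the other 4 for 0 members, against 10.8% of genes, and above for Trib3 (0.72), Phgdh (0.39) and Atf4 (0.24), against 11.2% of genes.

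**Figure D3:**
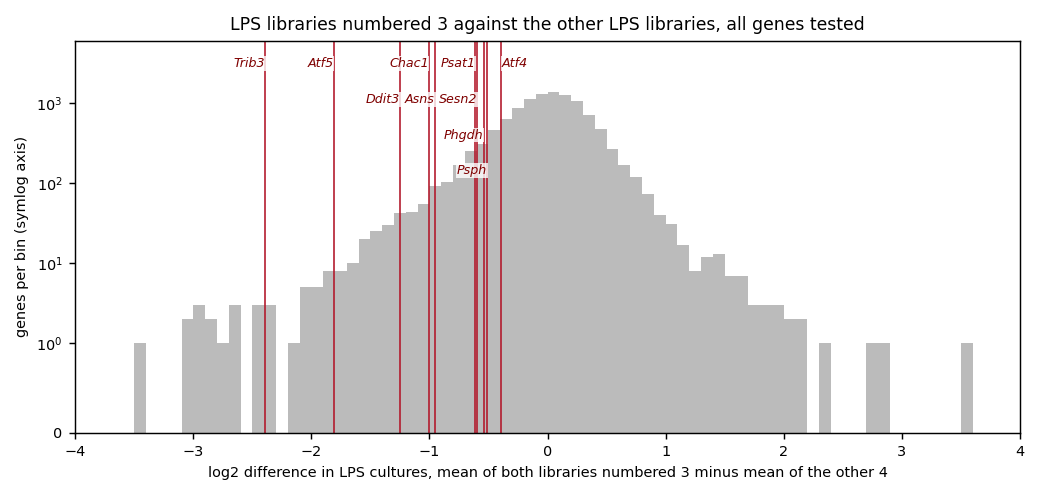
Histogram of all 11291 genes tested in LPS cultures (bin counts on a symlog axis) by the log2 difference of the mean of both libraries numbered 3 minus the mean of the other 4. Red lines mark the 10 genes, all of them left of 0, from Trib3 at -2.39 to Atf4 at -0.39.

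The spread within groups was computed from the same values, so it describes them again and adds no separate support. In LPS cultures the pooled within-group SD on the log2 scale was 1.43 for Trib3, larger than that of 99.5% of genes, 1.09 for Atf5, larger than that of 98.8%, and 0.73 for Ddit3, larger than that of 95.1%. Atf4 had an SD of 0.24, near the median of 0.26 over all genes. In IL7 cultures the widest members were Chac1 at 0.50, larger than that of 90.5% of genes, and Trib3 at 0.44, larger than that of 87.7%. The median there was 0.17.

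Other genes of the programme were taken from 8 lists, and several of the known ATF4 targets were low in the LPS libraries numbered 3 with the members. The genes in this paragraph were chosen after their values were seen. Of 12 tested bZIP partners and other regulators, 8 lay below the other 4 libraries in both and 1 above, with a list median of -0.62. Nupr1, a small stress-induced chromatin protein, had 30.002, 25.1 and 2.93 normalised reads in LPS T58A, against 41.2, 18.2 and 1.97 in WT, so number 3 held 3 reads in T58A and 2 in WT. Cth, which makes cysteine from cystathionine, had 176, 202 and 70.4 in T58A, against 288, 179 and 50.1 in WT. Among the others below were Cebpb at -1.28, the glycine transporter Slc6a9 at -1.42, Gpt2 at -1.12, Pck2 at -1.04 and Ppp1r15a, which directs eIF2 dephosphorylation, at -0.99.

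The counts by list are read against the 14.7% of all genes with both libraries numbered 3 below the other 4 and the 15.3% with both above. Both were below for 4 and above for 0 of 11 amino acid transporters, and below for 5 and above for 0 of 13 tRNA synthetases and related genes. For 16 glycine, folate and sulfur amino acid enzymes 3 were below and 1 above, near the share of all genes, and for 12 proline and alanine enzymes 4 were below and 3 above. Of the 15 genes for eIF2, its kinases and its phosphatases, 1 was below and 7 were above, with a median of 0.21. Among 17 genes of the other unfolded protein response arms, run by IRE1 and ATF6, 0 were below and 1, Xbp1, was above at 1.05, with a median of 0.38. Of 13 genes of mTORC1 and amino acid sensing, 2 were below and 4 above.

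Of the 6 plasmablast markers, all tested, 3 were above the other 4 libraries in both number 3 libraries (Sdc1, Xbp1 and Fkbp11), 0 were below, and Igj, Prdm1 and Derl3 overlapped. The list summed to 7806 CPM in LPS T58A 3 and 11522 in LPS WT 3, where the other 4 ranged from 2408 to 11483, so T58A 3 lay within that range and WT 3 level with its top. None of the 6 B lineage markers lay above and 1 lay below. Myeloid markers summed to 116 and 130 CPM in LPS T58A 3 and WT 3, against 78.8 to 104 in the other 4, with Elane at 0 in every LPS library. The depth of LPS T58A 3, 7002289 reads, and of LPS WT 3, 7006399 reads, lay within that of the others. The part of these in the pattern was not tested.

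**Figure D4:**
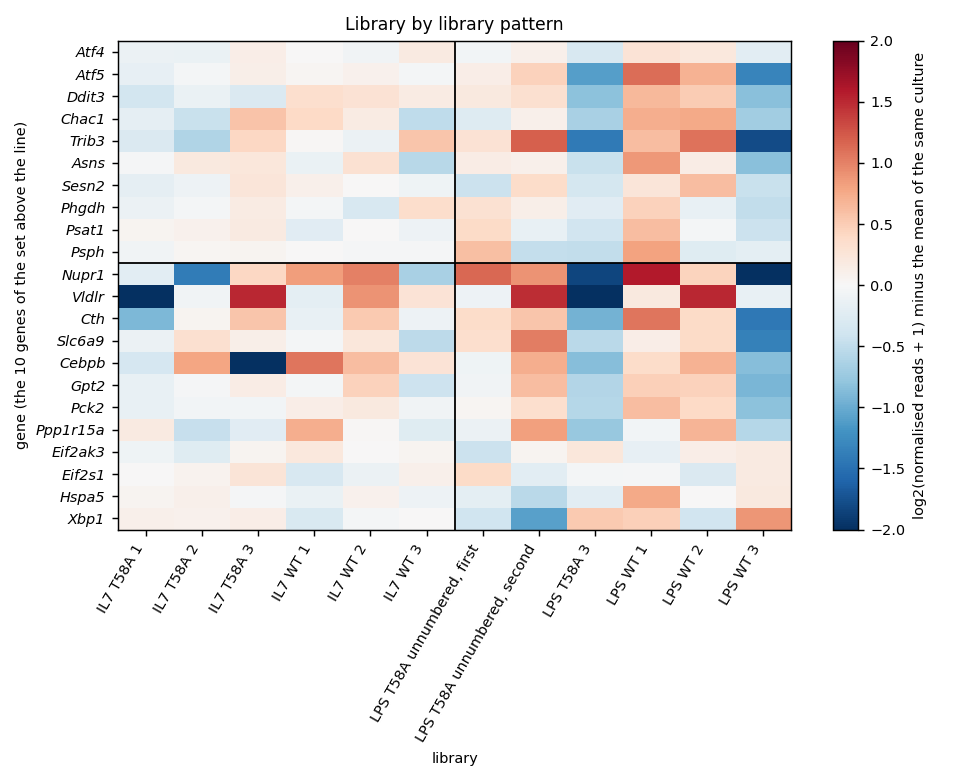
Log2 of normalised reads plus 1 minus the mean of the same culture, per gene and library, with the 10 genes above the line and 12 others of the lists, chosen after their values were seen, below it. In LPS cultures the columns of T58A 3 and WT 3 are blue for most genes down to Ppp1r15a, and Xbp1 is red in both. Nupr1, Vldlr and Cebpb have few reads in IL7 cultures.

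The T58A difference was not shown to vary between the cultures for any member. The interaction, the T58A difference in IL7 minus that in LPS, was called for 0 of 10767 genes by limma (0%), edgeR and limma-voom and for 4 by DESeq2 (0.0372%), and 479 genes had an unadjusted limma p under 0.05. It was -0.32 with an SE of 0.49 for Ddit3, 0.49 with an SE of 0.55 for Chac1 and 0.32 with an SE of 0.33 for Psat1 (limma adjusted p = 0.996 for each). None of the members had an unadjusted p under 0.05. With SEs of this size a difference as large as the one seen for Ddit3 in IL7 cultures was not detectable.

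Around the members, a minority of the listed genes that supply and use amino acids rose with T58A in IL7 cultures in the fit with the pair block, which called 6.41% of all genes higher and 6.31% lower in T58A. The median log2 difference was -0.03 over the 10 members, with 4 above 0, and -0.01 over all genes, with 49.0% above 0. Without the block 0 genes of any list were called, as in the whole table. The lists were described by these counts, and nothing about them was tested as a set. In the same libraries T and NK cell markers summed to 1.59 to 2.31 CPM in T58A and 4.01 to 5.61 in WT, low values that did not overlap. Mature B cell markers, at 313 to 434 in T58A and 320 to 768 in WT, overlapped between the genotypes. The sum of the precursor markers, at 1633 to 1884 in T58A and 1777 to 2381 in WT, overlapped too. Singly, Vpreb1, Igll1 and Dntt overlapped, and Rag1, Rag2 and Il7r were lower in every T58A library than in every WT library. Rag1 stood at 118 to 208 CPM in T58A and 214 to 329 in WT, and Rag2 at 20.9 to 45.4 and 45.6 to 68.4. For Il7r the values were 88.7 to 112 and 125 to 136. By normalised reads, 10.8% of all genes tested had all T58A libraries below all WT libraries. The part of these cell types in the list counts was not tested.

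Amino acid transporters had a median of 0.25, and 3 of 10 tested rose and 0 fell with the block, against 6.41% and 6.31% of all genes. Slc7a1, the importer of arginine and lysine, had 2951, 3184 and 3779 normalised reads in T58A, against 1702, 2538 and 2559 in WT. All T58A libraries lay above WT, with a difference of 0.56 (SE 0.09, limma adjusted p = 0.00855 with the block). Slc7a5, the leucine importer, rose by 0.39 (adjusted p = 0.0101) and Slc1a4 by 0.41 (adjusted p = 0.0308). The gene with the smallest p among those lower was Slc7a3, at -0.20 with an SE of 0.41.

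Folate, glycine and sulfur amino acid enzymes, which take up the serine that Phgdh, Psat1 and Psph make, had a median of 0.23, and 6 of 18 rose and 0 fell. Mthfd1, a folate enzyme of the cytosol, had 2519, 2727 and 2949 normalised reads in T58A, against 1614, 1923 and 2074 in WT. The groups did not overlap, and the difference was 0.55 (SE 0.06, limma adjusted p = 0.00395 with the block). Shmt1, which splits serine into glycine and a folate-bound carbon in the cytosol, rose by 0.43 (adjusted p = 0.00855), and Gldc, of the glycine cleavage system, by 0.36 (adjusted p = 0.0183). Gclc, of glutathione synthesis, had the smallest p among those lower, at -0.07 with an SE of 0.07.

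Of the tRNA synthetases and related genes, 5 of 13 rose and 0 fell, and all 13 differences were above 0. They were led by Xpot, the tRNA exporter, at 0.44 (limma adjusted p = 0.00963 with the block), Eprs at 0.42 (adjusted p = 0.0101) and Iars at 0.42 (adjusted p = 0.0116). Proline, alanine and related enzymes had 2 of 12 rise, Got2 at 0.39 and Bcat1 at 0.27, and 0 fall, and Glul, which makes glutamine, was at -0.30 (adjusted p = 0.0524). In the eIF2, unfolded protein response and mTORC1 lists 1 gene each rose, near the 6.41% of all genes. Of 15 genes for eIF2, its kinases and phosphatases, 1 rose, Eif2ak4, the kinase GCN2 that senses uncharged tRNA, at 0.33 (adjusted p = 0.0334), and 0 fell. Ppp1r15a had the smallest p among those lower, at -0.34 with an SE of 0.15.

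None of the 10 tested bZIP partners and regulators was called with the block, by limma (the smallest adjusted p were 0.118 for Atf7 at 0.47 and 0.129 for Gadd45a at -0.50). Their median was -0.19, and 3 of 10 were above 0. Of 17 genes of the other unfolded protein response arms 1 rose, the chaperone Hyou1 at 0.31 (adjusted p = 0.0158), and 0 fell, with Dnajb9 at -0.42 (adjusted p = 0.112). Of 13 genes of mTORC1 and amino acid sensing 1 rose, Eif4ebp2 at 0.32 (adjusted p = 0.0187), and 0 fell, with Sesn1, the relative of Sesn2, at -0.28 (adjusted p = 0.0871).

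In LPS cultures 0 genes of the 8 lists were called by limma, where the adjusted p was 1.00 for every gene named here. The median log2 difference of the members was -0.19, with 2 of 10 above 0, against 0.01 over all genes, with 52.4% above 0. The 17 genes of the other unfolded protein response arms had a median of -0.61 and 0 above 0. The smallest p among them was that of Sel1l, of the degradation route of the endoplasmic reticulum, at -0.65 with an SE of 0.25. Plasmablast markers, of which Xbp1 is also in that list, summed to 2408 to 7806 CPM in LPS T58A and 4166 to 11522 in LPS WT libraries. Their part in it was not tested.

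For the transporters the smallest p in each direction in LPS cultures were those of Slc7a11, the cystine importer, and Slc6a9. Slc7a11 had 12.001, 20.1 and 20.5 normalised reads in T58A, against 35.7, 36.3 and 28.5 in WT, all T58A libraries being below WT, with a difference of -0.93 and an SE of 0.34. Slc6a9 was at 0.56 with an SE of 0.50. Among folate and sulfur enzymes these were Mthfd1 at 0.38 (SE 0.20) and Aldh1l2 at -0.54 (SE 0.28). Of the synthetases they were Cars at 0.11 and Nars at -0.28, and of the proline and alanine enzymes the higher one was Bcat1 at 0.27. Regulators gave Atf3 at 0.18 and Gadd45a at -0.37, the eIF2 genes Eif2ak4 at 0.32 and Eif2s3x at -0.32, and the mTORC1 genes Rptor at 0.23 and Rragd at -0.10.

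The genes whose levels over the 12 libraries, after the mean of each culture was taken off, were most like those of Atf4 were Lsm14a (Pearson r 0.90), Mettl9 (0.90), Glipr2 (0.89), Pip4k2a (0.88) and Amz2 (0.88), among 7678 genes. For Asns they were Ahi1 (0.90), Pot1a (0.88), Phf10 (0.88), D1Ertd622e (0.88) and Fam216a (0.88). For Phgdh they were Psmg4 (0.85), Tbca (0.85), Snap47 (0.84), Atg3 (0.83) and Mrpl30 (0.82). Taken within each culture, r was higher in LPS than in IL7 cultures for all of these genes but Glipr2 and Tbca. That of Fam216a with Asns was 0.55 in IL7 and 0.97 in LPS cultures, and that of Glipr2 with Atf4 was 0.92 and 0.89. The genes named have the highest of many r values over few libraries that share number, depth and scaling, and no p is given.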

How the data were processed

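RNA from 12 cultures of mouse B cells was sequenced with a kit that does not mark strand, so reads of a gene and of an overlapping antisense gene cannot be told apart. Per the submitters' processing notes, bcl2fastq 1.8.4, TopHat2 2.1.0, HTSeq 0.6.1, DESeq2 (version not given in the sources used here) and mm10 were used. The authors deposited for each culture a signal per gene and library, which is a read count divided by 1 factor per library, and a log2 fold change, p-value and adjusted p per gene. Whole reads were recovered from every column, within 0.001 for 100% of values. Because the tables hold normalised values and not raw counts, the test was limma-trend (limma 3.58.1, R 4.3.3) on log2 of the value plus 1. Low genes were removed from each culture on these reads by filterByExpr (edgeR 4.0.16, with a minimum count of 10 and a minimum total of 15), and all 10 members passed in both cultures. P-values were adjusted by Benjamini-Hochberg over all genes tested, at 0.05.

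Groups came from titles and column headers. A header that stands over 2 LPS T58A columns leaves their number unknown, and 0 value columns were left unused. Same-numbered IL7 libraries, which the titles call pairs, had correlations of their deviations from the group means of 0.41, 0.15 and 0.40, so the pair block is given beside results it changes. In LPS cultures only number 3 can be paired by name. Alternatives were other scalings, pseudocounts of 0.5 and 5, other filters, edgeR, limma-voom, DESeq2 1.42.0, all 12 libraries in 1 fit, blocks and leaving out each library. The number 3 term, leaving out number 3 and the interaction fits with them were added after seeing the data.

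The members and lists were chosen with earlier results of these data known. All members were named. From each other list the text names up to 3 genes per direction with the smallest p among those called with or without the pair block, and otherwise the 1 with the smallest p in each direction, for the genotype comparisons within each culture. A gene that this rule takes is not reported here. For likeness, genes needed a mean of at least 100 normalised reads in both tables, and predicted genes were left out. Symbols were matched to GENCODE on GRCm38 for exon lengths. Promoters are RefSeq's, GRCm38.p6. The tests were tested on simulated data, and Python 3.11.15 with matplotlib 3.10.9 drew the figures.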

Additional observations from a re-analysis of the deposited data

How the results depend on the processing

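The members' log2 differences were recomputed under 620 combinations of gene, comparison and alternative. Of these, 572 kept their direction and 48 changed it, 36 of them on leaving out 1 library and 12 under other settings, and 0 of the 48 had an adjusted p under 0.05. In IL7 cultures Phgdh was -0.0186 with total-read scaling, -0.0185 with edgeR, -0.0194 with DESeq2 and -0.0017 with the replicate block in edgeR, and Psph was -0.0036 with total-read scaling. With the replicate block and without pair 2, Chac1 was 0.24, Sesn2 0.0189, Phgdh -0.13 and Psph -5.7e-05. In LPS cultures Trib3 was -0.0201 with edgeR, -0.0257 with DESeq2 and -0.11 without the libraries numbered 3. The cause was not tested.

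Leaving out 1 library at a time, the IL7 differences that changed sign ranged from -0.13 to 0.0137 for Atf5, -0.33 to 0.17 for Chac1, -0.15 to 0.0578 for Sesn2, -0.16 to 0.18 for Phgdh and -0.0034 to 0.0602 for Psph. The LPS ones ranged from -1.07 to 0.14 for Atf5, -0.68 to 0.15 for Ddit3, -0.58 to 0.27 for Asns, -0.83 to 0.77 for Trib3, -0.0943 to 0.38 for Phgdh, -0.34 to 0.18 for Psat1 and -0.60 to 0.10 for Psph. Those of the interaction ranged from -0.0060 to 0.26 for Atf4, -0.20 to 1.02 for Atf5, -0.68 to 0.15 for Ddit3, -0.0084 to 0.84 for Asns, -1.07 to 0.52 for Trib3, -0.37 to 0.10 for Phgdh and -0.0834 to 0.62 for Psph.

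Of all genes, limma called 0 in each comparison. In IL7 cultures DESeq2 called 309, the replicate block 1476 with limma and 1424 with edgeR, and 774 without pair 2, and leaving out 1 library gave 0 to 1. In LPS cultures DESeq2 called 1, number 3 as a term 1, leaving out both libraries numbered 3 4, and the replicate block 4 with the first unnumbered library paired with WT 1 and 0 with WT 2. Leaving out 1 library gave 0 to 4 there, with 4 without WT 3 and 1 without T58A 3. For the interaction DESeq2 called 4, the replicate block with the number 3 term 21, and leaving out 1 library gave 0 to 1. The replicate block changed no member's call other than that of Ddit3 in IL7 cultures. In LPS cultures the members' SEs were 0.19 to 0.79 without a block, 0.0867 to 0.184 with the first unnumbered library paired with WT 1, and 0.161 to 0.366 with WT 2. Deviations from the group means correlated at 0.34 and 0.66 over the unnumbered libraries in the first of these pairings, -0.22 and -0.23 in the other, and 0.54 for number 3. The labels settle neither pairing, and no member was called in either, with a smallest limma adjusted p of 0.180, for Chac1.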
